A study of Mus musculus with 24 samples.

Results

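Beta-catenin, encoded by Ctnnb1, and 7 further components of the Wnt pathway were followed through 7 groups of mouse blood progenitors. The listed genes were Ctnnb1, Tcf7, Lef1, Tcf7l2, Axin1, Apc, Gsk3b and Fzd7, and each was taken from the probe sets whose only platform symbol was that gene. Of the 8 listed genes 7 were measured, through 16 of the 22690 probe sets of the array, among 12393 genes in all. Tcf7 has no value here, because no probe set carried its symbol alone. A probe set is a group of short oligonucleotides that reads 1 stretch of a transcript, and Ctnnb1 and Apc had 3 probe sets each, Tcf7l2 had 4, Axin1 and Fzd7 had 2 each, and Gsk3b and Lef1 had 1 each.

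The study placed leukemia oncogenes in granulocyte monocyte progenitors (GMP), the committed precursors of neutrophils and monocytes, and measured messenger RNA on 24 Affymetrix Mouse Genome 430A 2.0 arrays. All cells were C57BL/6. The fresh, untransduced cells were sorted GMP (4 arrays) and LSK cells (3 arrays, titled HSC), the lineage-negative, Sca-1+ and Kit+ marrow fraction that is rich in stem cells. The transduced groups were GMP harvested as GFP-positive cells 36 hours after spinoculation with an empty GFP vector (GFP, 3 arrays), MOZ-TIF2 (MT2, 4 arrays), NUP98-HOXA9 (NHA9, 3 arrays) or AML1-ETO (AE, 4 arrays). The last group was L-GMP (3 arrays), leukemic cells sorted with the GMP surface phenotype from a MOZ-TIF2 leukemia model, which the submitters describe as leukemic stem cells. The labels do not say whether arrays of a group came from separate animals, cultures or infections, so a p-value here reflects only how these samples spread, and part of that spread may be technical. Vector and infection are shared by all transduced groups, so GFP is the control for an oncogene, while GFP against GMP holds infection and the hours that followed it together, and those cannot be told apart.

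In the canonical pathway, Wnt ligands bind Frizzled receptors and an LRP co-receptor at the cell surface. Without a ligand, a destruction complex built on the scaffolds Axin and APC lets the kinases CK1 and GSK3-beta phosphorylate beta-catenin, which is then degraded. With a ligand, Dishevelled recruits Axin to the membrane, beta-catenin accumulates, enters the nucleus and binds TCF and LEF proteins to drive target genes. Much of this control acts on the protein, which these arrays do not measure. In blood, the pathway is known for its roles in stem cell self-renewal, in early T cells and in myeloid leukemia stem cells.

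Values are log2 expression, so a difference of 1 is a factor of 2, and a level of 60 on the linear scale (5.91 on the log2 scale) is the average background given by the authors. A probe set was tested where it exceeded 60 on at least 2 arrays of a compared group, and a difference was called at an adjusted p under 0.05. All adjusted p-values are from limma with Benjamini-Hochberg adjustment over all probe sets tested. Where a gene had several probe sets, the one brightest on average over the 24 arrays stands for it. A listed gene is thus counted once, while shares over all count every tested probe set. Where the lower group mean was under 60, the fold is a lower bound against 60 and is written "at least". Such a probe set can enter a test through its higher group alone. Its SE and p-value then rest in part on values under background. Levels are compared between groups within a probe set and never between genes.

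Across the 7 groups, the array medians ran from 5.63 to 5.76 and 46.1 to 48.3% of probe sets exceeded 60 on an array. Replicates were most alike in GFP, with a lowest Pearson r over probe sets of 0.99, and least alike in L-GMP, with a lowest r of 0.946, and in GMP, with 0.95. The mean log2 level of 9 stem cell markers was 8.68 to 8.91 on the LSK arrays and 5.89 to 7.05 on all others. Of these markers, Mecom (3.97) and Slamf1 (5.80) had LSK means under 60. The mean of 7 GMP and neutrophil markers was 9.66 to 10.57 in LSK and 11.91 to 12.06 in GMP. In L-GMP it was 10.20 to 11.97, which overlapped LSK. Of 11 T cell markers, Zap70 exceeded 60 in the mean of every group and Cd3e in GFP alone, at 5.92, and the other 9 stayed under it.

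Of the 7 measured genes, Ctnnb1 and Axin1 exceeded 60 on all 24 arrays, Apc on 23, Gsk3b on 18 and Fzd7 on 13. Tcf7l2 did so on 1 array (GMP 2, 6.07) and Lef1 on 0. A member was called in 3 of the two-group comparisons. Ctnnb1 was called in LSK against GMP, where 1 of 4 tested members passed and 15.1% of all tested probe sets passed. Fzd7 was called in GFP against GMP, where 1 of 5 passed against 15.7% of all. Gsk3b was called in AE against GFP, where 1 of 5 passed against 11% of all.

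For these 3 genes, the 250 bases before the RefSeq start of the gene on GRCm38.p6 are shown because they hold, or lack, the core of the motif that TCF and LEF proteins bind. Capitals mark matches of CTTTGA or CTTTGT on either strand, read on the strand shown as those letters or as TCAAAG and ACAAAG. All 3 stretches lie on the + strand, at chr1:59481897-59482146 for Fzd7, chr16:38088751-38089000 for Gsk3b and chr9:120933150-120933399 for Ctnnb1.
Fzd7: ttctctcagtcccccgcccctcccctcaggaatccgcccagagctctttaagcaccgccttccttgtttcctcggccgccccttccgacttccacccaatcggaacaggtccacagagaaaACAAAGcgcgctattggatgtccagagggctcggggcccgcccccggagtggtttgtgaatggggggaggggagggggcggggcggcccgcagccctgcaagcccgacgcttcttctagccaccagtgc
Gsk3b: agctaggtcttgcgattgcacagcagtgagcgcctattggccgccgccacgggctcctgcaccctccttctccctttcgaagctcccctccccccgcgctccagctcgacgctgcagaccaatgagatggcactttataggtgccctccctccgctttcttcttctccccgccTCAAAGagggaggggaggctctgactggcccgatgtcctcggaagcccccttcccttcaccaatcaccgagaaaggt
Ctnnb1: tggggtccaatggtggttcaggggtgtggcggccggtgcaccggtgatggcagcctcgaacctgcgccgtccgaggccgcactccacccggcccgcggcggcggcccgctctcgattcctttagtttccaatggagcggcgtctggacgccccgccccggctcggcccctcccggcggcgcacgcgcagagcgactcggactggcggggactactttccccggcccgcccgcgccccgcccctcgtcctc
The Fzd7 match lies 129 bases before the start and the Gsk3b match 77 bases before it, and the Ctnnb1 stretch holds no match. The motif is common: 9075 of 32851 windows of this length, 27.6%, hold at least 1. Of the 8 listed genes 6 had a RefSeq window, with 12 windows between them, and 4 of the 12 held a match. One of 4 Lef1 windows held 3 matches, at 180, 146 and 120 bases before the start. A match is a run of letters, not a site shown to be bound.

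**Figure D1:**
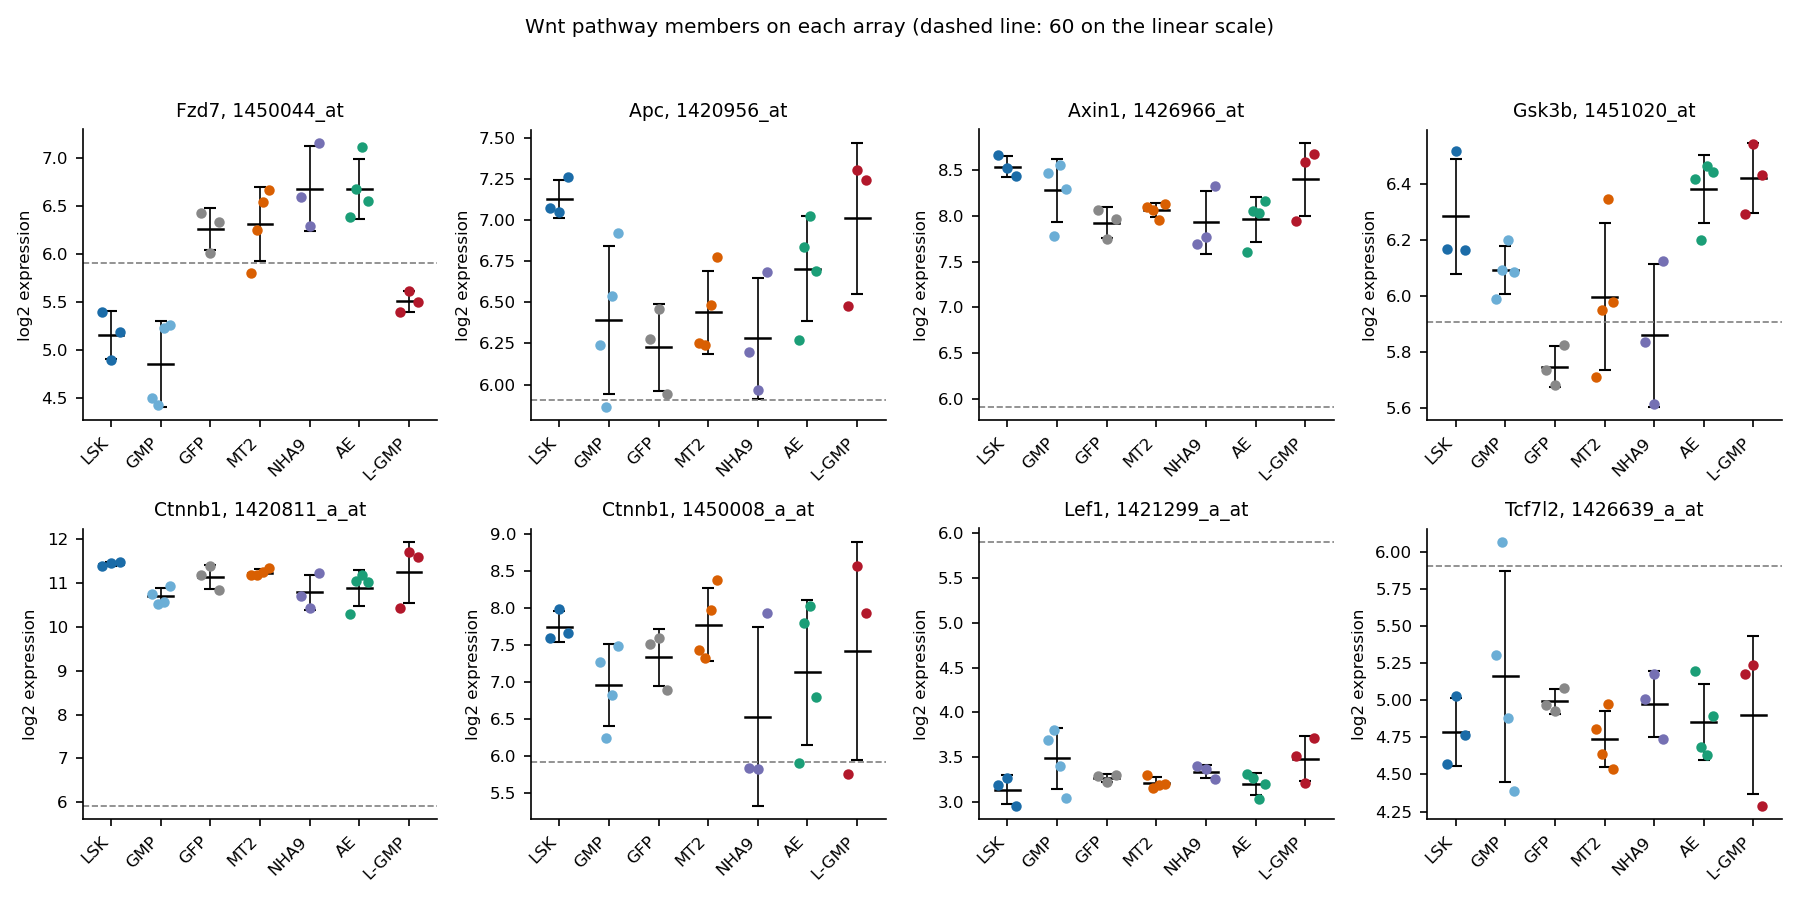
Log2 expression (vertical axis) of the Wnt pathway members on each array, 1 panel per gene or probe set, with groups along the horizontal axis, points for arrays, bars for group means and a dashed line at 60 on the linear scale (5.91). The Fzd7 means lie above the line in the transduced groups and below it in LSK, GMP and L-GMP, while Ctnnb1 lies far above the line in every group.

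Fzd7 is a Frizzled, one of the seven-pass membrane proteins that receive Wnt ligands. In fresh GMP its levels on the 4 arrays were 4.51, 4.43, 5.23 and 5.26, and on the GFP arrays they were 6.42, 6.01 and 6.33. Every GFP array lay above every GMP array. No GMP array exceeded 60, so Fzd7 entered the test through the GFP arrays alone. The group means were 4.86 ± 0.45 (SD, n = 4) and 6.25 ± 0.22 (SD, n = 3), a difference of 1.40 (SE 0.25; limma adjusted p = 0.00564) and, since GMP was under 60, a rise of at least 1.27-fold. On the same arrays the mean of 8 erythroid and megakaryocyte markers was 6.65 to 7.06 in GMP and 5.80 to 6.04 in GFP, and that of the stem cell markers was 6.25 to 7.05 and 5.89 to 5.95, and the Gapdh 3' minus 5' difference, a measure of RNA quality described with Ctnnb1, was 3.40 to 4.33 and 2.71 to 3.60. The part of these in the Fzd7 difference was not tested. The call held in 14 of 15 alternative settings and was lost by the methods' t-test, and the mean of both Fzd7 probe sets was too near background to be tested. In bulk RNA, fewer cells of a type and less RNA per cell cannot be told apart.

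The oncogene groups held Fzd7 near the level of the empty vector. The MT2 arrays read 5.80, 6.24, 6.54 and 6.66. The NHA9 arrays read 6.59, 6.29 and 7.15, and the AE arrays 6.38, 6.67, 7.11 and 6.54. All of these but MT2 1 exceeded 60, as did all 3 GFP arrays. The differences from GFP were 0.06 in MT2 (SE 0.20; limma adjusted p = 0.872), 0.42 in NHA9 (adjusted p = 0.539) and 0.42 in AE (SE 0.20; adjusted p = 0.19), and the arrays of each overlapped those of GFP.

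The LSK arrays read 5.39, 4.90 and 5.19 for Fzd7 and the L-GMP arrays 5.40, 5.62 and 5.50. None of the 10 untransduced and leukemic arrays exceeded 60, so Fzd7 was not tested between LSK, GMP and L-GMP. From the highest mean to the lowest, the groups stood in the order AE (6.68), NHA9 (6.67), MT2 (6.31), GFP (6.25), L-GMP (5.51), LSK (5.16) and GMP (4.86). In that order the arrays of neighbouring groups overlapped except between GFP and L-GMP and between L-GMP and LSK. The moderated F test over the 7 groups called Fzd7 (limma adjusted p = 2.3e-06), as it did 56.3% of all tested probe sets. The other Fzd7 probe set read 4.62 to 5.61 over all 24 arrays, was under 60 on each, and was not tested.

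Apc is a scaffold of the destruction complex and binds beta-catenin directly. Its levels were 7.08, 7.05 and 7.26 on the LSK arrays and 6.24, 5.86, 6.54 and 6.92 on the GMP arrays. The LSK arrays all lay above the GMP arrays, with means of 7.13 ± 0.12 (SD, n = 3) and 6.39 ± 0.45 (SD, n = 4). The difference of 0.74 (SE 0.24) missed the threshold (limma adjusted p = 0.0708). It passed with a tag in the scanner file names (coded A, B or none, with no meaning stated in the labels) as a factor (adjusted p = 0.0045), with quantile normalization (0.0433), with all 24 arrays in 1 fit (0.0373), and without GMP 2 (0.0499) or GMP 4 (0.0162). With the replicate number as a block it was 0.91 (adjusted p = 0.0197).

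The L-GMP arrays read 6.48, 7.30 and 7.24 for Apc, against a GMP mean of 6.39, with a difference of 0.62 (SE 0.31; limma adjusted p = 0.349). L-GMP 1 lay within the GMP arrays and the other two above all of them. Among the transduced groups the means were 6.23 ± 0.26 in GFP (SD, n = 3), 6.44 ± 0.25 in MT2 (SD, n = 4), 6.28 ± 0.37 in NHA9 (SD, n = 3) and 6.70 ± 0.32 in AE (SD, n = 4). No difference from GFP was called, and that of AE, 0.48 (SE 0.20; limma adjusted p = 0.154), became 0.62 without AE 1 (adjusted p = 0.0226). The F test over the 7 groups called Apc (limma adjusted p = 0.0209), with group means that spanned 0.90, and did not without LSK 3 (adjusted p = 0.0563). That test called 56.3% of all tested probe sets. The other 2 Apc probe sets never exceeded 60.

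Axin1 is the scaffold that holds APC, the kinases and beta-catenin together. The group means ran from 7.93 ± 0.17 in GFP (SD, n = 3) and 7.93 ± 0.34 in NHA9 (SD, n = 3) to 8.54 ± 0.12 in LSK (SD, n = 3). The LSK arrays read 8.67, 8.52 and 8.43 and the GMP arrays 8.48, 7.79, 8.56 and 8.30, which overlapped. No comparison between groups called Axin1, and the F test over the 7 groups gave a limma adjusted p of 0.0606. The F test called it without GMP 2 (adjusted p = 0.0148), L-GMP 1 (0.0105) or NHA9 3 (0.0226), with quantile normalization (0.00461) and with the mean of its probe sets (0.00511). The difference of GFP from GMP was -0.35 (SE 0.21; limma adjusted p = 0.291), and -0.52 and called without GMP 2 (adjusted p = 0.0173). The other Axin1 probe set stayed under 60 on every array.

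Gsk3b encodes GSK3-beta, the kinase that marks beta-catenin for degradation and has many other substrates. Its levels lay close to the background level in all groups. The GFP arrays read 5.74, 5.68 and 5.83, all under 60, and the AE arrays 6.42, 6.20, 6.46 and 6.44, all over it. The means were 5.75 ± 0.07 (SD, n = 3) and 6.38 ± 0.12 (SD, n = 4), and Gsk3b rose in AE by 0.63 (SE 0.14; limma adjusted p = 0.0187), at least 1.39-fold. Gsk3b entered this test through the AE arrays alone. On the same arrays the mean of 7 GMP and neutrophil markers was 11.99 to 12.13 in GFP and 11.12 to 11.65 in AE, and the part of these markers was not tested. File-name tags were spread unevenly here, with tag A on all 3 GFP arrays and on 1 AE array and tag B on the other 3 AE arrays. With the tag as a factor in a fit to all 24 arrays the Gsk3b difference was 0.65 (limma adjusted p = 0.0212), and on tag A alone Gsk3b was not tested, since 1 array only exceeded 60. The call was lost with the replicate number as a block (0.61; adjusted p = 0.109), by the methods' t-test, and without GFP 1 (limma adjusted p = 0.0912) or GFP 2 (0.108).

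In MT2 the Gsk3b arrays read 5.71, 5.95, 6.35 and 5.98, and in NHA9 5.84, 5.62 and 6.13. Both groups overlapped GFP, and MT2 differed from it by 0.25 (limma adjusted p = 0.287), while NHA9 and GFP were too near background for a test. AE stood above NHA9 by 0.52 (SE 0.16; adjusted p = 0.0577) with no overlap of arrays and above MT2 by 0.38 (SE 0.15; adjusted p = 0.0605), neither of which passed. Both passed with the replicate block (limma adjusted p = 0.0478 for NHA9 and 0.0372 for MT2), without MT2 3 (0.0414 and 0.0184) and without NHA9 3 (0.0249 and 0.0407). These comparisons called 0 of 5 members by limma, with 1 at an unadjusted p under 0.05 in each, while 7.23% of all tested probe sets were called between NHA9 and AE and 28.5% between MT2 and AE.

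Fresh and leukemic cells read above the empty-vector cells on every array. GMP read 5.99, 6.09, 6.20 and 6.08, LSK 6.17, 6.52 and 6.16, and L-GMP 6.29, 6.54 and 6.43. Every L-GMP array lay above every GMP array, yet the difference of 0.33 (SE 0.18) was not called (limma adjusted p = 0.394). Every GFP array lay below every GMP array, by 0.34 in the mean (SE 0.13; limma adjusted p = 0.12), which was called with quantile normalization (adjusted p = 0.0382) and by the methods' t-test. The F test over the 7 groups called Gsk3b (limma adjusted p = 0.0036), as it did 56.3% of all tested probe sets, with means that spanned 0.67.

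Ctnnb1 encodes beta-catenin, which carries the Wnt signal into the nucleus and also links cadherins to the cytoskeleton at cell junctions. Its message stood far over background in every group. The LSK arrays read 11.39, 11.47 and 11.48, and the GMP arrays 10.76, 10.53, 10.57 and 10.93. All LSK arrays lay above all GMP arrays, with means of 11.45 ± 0.05 (SD, n = 3) and 10.70 ± 0.18 (SD, n = 4), and Ctnnb1 was 0.75 higher in LSK (SE 0.15; limma adjusted p = 0.0117), or 1.68-fold. A second probe set gave 0.79 (SE 0.29), also with no overlap, but was not called (adjusted p = 0.0997). The call was lost without LSK 1 (limma adjusted p = 0.0532) or LSK 2 (0.0554), with the mean of the 3 probe sets (0.52; adjusted p = 0.159) and by the methods' t-test. On the same arrays the mean of the GMP and neutrophil markers was 9.66 to 10.57 in LSK and 11.91 to 12.06 in GMP, and that of the erythroid and megakaryocyte markers 7.24 to 7.83 and 6.65 to 7.06; their part was not tested.

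At 36 hours the limma fits of each oncogene against GFP did not call Ctnnb1. The GFP arrays read 11.18, 11.39 and 10.85 and the MT2 arrays 11.20, 11.19, 11.25 and 11.34. The NHA9 arrays read 10.70, 10.44 and 11.24, and the AE arrays 10.29, 11.06, 11.19 and 11.02. The MT2 arrays lay within the range of GFP, while NHA9 and AE each overlapped it and reached lower. The differences from GFP were 0.10 in MT2 (SE 0.14; limma adjusted p = 0.646), -0.35 in NHA9 (SE 0.23; adjusted p = 0.594) and -0.25 in AE (SE 0.23; adjusted p = 0.498). The second probe set gave 0.44, -0.81 and -0.21, none called. The AE difference rested on AE 1: it was -0.05 without that array, and -0.85 and called (limma adjusted p = 0.0442) on the arrays of tag A only, where AE 1 is the sole AE array and is assumed to vary like the others. The NHA9 difference was -0.57 without NHA9 3, which leaves the tag A arrays (adjusted p = 0.124), and -0.17 without NHA9 2.

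The counts of members behind this were 0 of 5 in MT2, where 11.8% of all tested probe sets were called, and 0 of 4 in NHA9, where 0.2% were. With the 3 oncogenes joined as 1 class, 0 of 5 members and 0% of all tested probe sets were called. In these 3 comparisons limma gave 0 members an unadjusted p under 0.05, and the methods' t-test called 0. Between MT2 and NHA9, 0 of 5 members were called and 0 had an unadjusted p under 0.05 by limma, against 7.52% of all tested probe sets called, and Ctnnb1 differed by 0.45 (limma adjusted p = 0.223).

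In leukemic GMP the Ctnnb1 arrays stood apart from each other. They read 10.44, 11.71 and 11.59: L-GMP 1 lay below every GMP array, and the other two lay above every LSK array. The mean was 11.25 ± 0.70 (SD, n = 3), and the difference from GMP of 0.55 (SE 0.31) was not called (limma adjusted p = 0.42). Without L-GMP 1 it was 0.95 and was called (adjusted p = 0.0202). With the arrays of file-name tag A only, where L-GMP 1 is the sole leukemic array, it was -0.18. The GMP and neutrophil markers averaged 10.20 to 11.97 over the L-GMP arrays, and their part was not tested. Against LSK the difference was -0.20 (SE 0.33; limma adjusted p = 0.741), and 0.21 without L-GMP 1.

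Over the members, L-GMP against GMP called 0 of 4 by limma, with 0 at an unadjusted p under 0.05 and 0 by the methods' t-test, and 4.86% of all tested probe sets. L-GMP against LSK called 0 of 4 by the same tests, with 0 at an unadjusted p under 0.05, against 17.3% of all. A direct test took L-GMP minus GMP less MT2 minus GFP, named here the difference between leukemia and 36 hours. For Ctnnb1 it gave 0.45 (SE 0.36, limma adjusted p = 0.55), and 0.85 without L-GMP 1 (adjusted p = 0.0272). The test called 0 of 5 members by limma, 0 at an unadjusted p under 0.05, and 5.68% of all tested probe sets. Its parts have unlike controls, fresh GMP for L-GMP and the empty vector for MT2. MOZ-TIF2, infection and disease thus cannot be told apart in it, and between those controls 15.7% of all tested probe sets were called.

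The same arrays were low in more than 1 Ctnnb1 probe set. The second set read 5.75, 8.57 and 7.94 in L-GMP, 5.83, 5.82 and 7.93 in NHA9 and 5.90, 7.79, 8.02 and 6.79 in AE. L-GMP 1, NHA9 1 and 2 and AE 1 were the low arrays of their groups in both sets. The third set, which never exceeded 60, read 3.70, 4.97 and 4.74 in L-GMP and 3.71, 3.77 and 5.07 in NHA9, low on the same arrays.

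The Gapdh 3' probe set minus its 5' probe set is a measure of how far the labelled RNA reached from the 3' end, and a larger value means fewer 5' sequences. It ran from 2.50 to 4.82 over the 24 arrays and was highest on L-GMP 1, against 3.58 on L-GMP 2 and 3.08 on L-GMP 3. On the NHA9 arrays it was 3.74, 4.24 and 2.58, and on the AE arrays 3.91, 2.50, 2.86 and 4.07. In 4 of the 7 groups the array with the highest difference was the lowest for Ctnnb1, in both probe sets that exceeded 60. The same count was 4 of 7 for Apc, and 3 of 7 each for Axin1, Gsk3b and Fzd7. For Ctnnb1, the GFP, AE and LSK groups did not follow this. GFP 3 had the lowest Gapdh difference of its group, 2.71, and the lowest Ctnnb1 level, 10.85. AE 4 had the highest Gapdh difference of its group, 4.07, and read 11.02 for Ctnnb1, above the 10.29 of AE 1. The LSK arrays had 4.05 to 4.51 and a high Ctnnb1 level on all 3. These counts were not taken over all probe sets, so no share over all stands beside them. With only 3 or 4 arrays in a group, such a match can often arise by chance. The part of RNA quality in the differences of Ctnnb1, Apc and the other members was not tested.

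**Figure D2:**
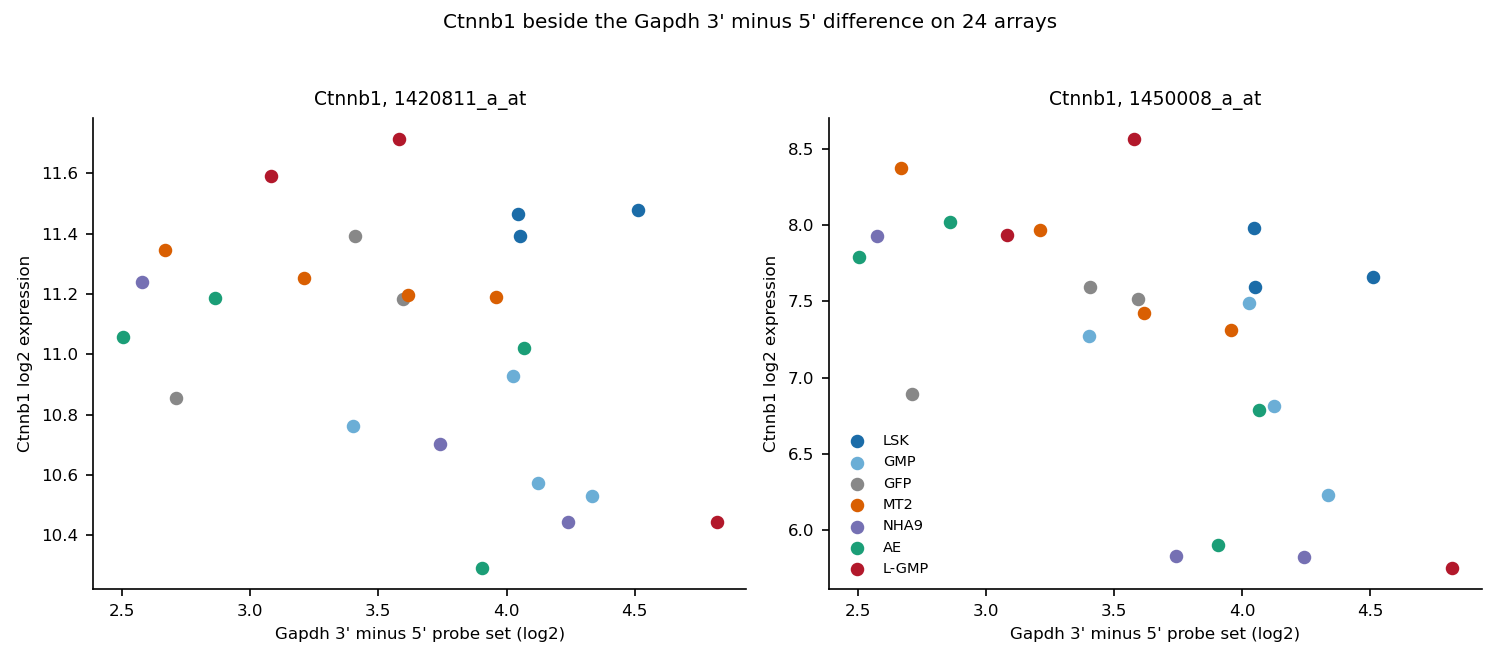
Ctnnb1 log2 expression (vertical axis) against the Gapdh 3' minus 5' difference in log2 (horizontal axis) on 24 arrays, 1 panel per Ctnnb1 probe set, points coloured by group. L-GMP 1, with the highest Gapdh difference (4.82), is low for Ctnnb1 in its group, while the LSK arrays are high for Ctnnb1 at 4.05 to 4.51.

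Across all 7 groups Ctnnb1 was not called by the F test (limma adjusted p = 0.102; 0.444 for the second set). It was called without L-GMP 1 (adjusted p = 0.00369) or NHA9 3 (0.0483), with the tag as a factor (0.0069) and with quantile normalization (0.0373). Its group means fell in the order LSK (11.45), L-GMP and MT2 (11.25 each), GFP (11.14), AE (10.89), NHA9 (10.79) and GMP (10.70), and the arrays of every pair of neighbours overlapped. GFP stood above GMP by 0.44 (SE 0.18), which was not called (limma adjusted p = 0.13). The genes with the most similar pattern over the 24 arrays, among 7592 compared, were Katna1 (Pearson r = 0.89), Coro1c (0.88) and Marchf6 (0.88). These correlations are a description: the 24 points fall into the same 7 groups, and whether RNA quality enters them was not tested.

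**Figure D3:**
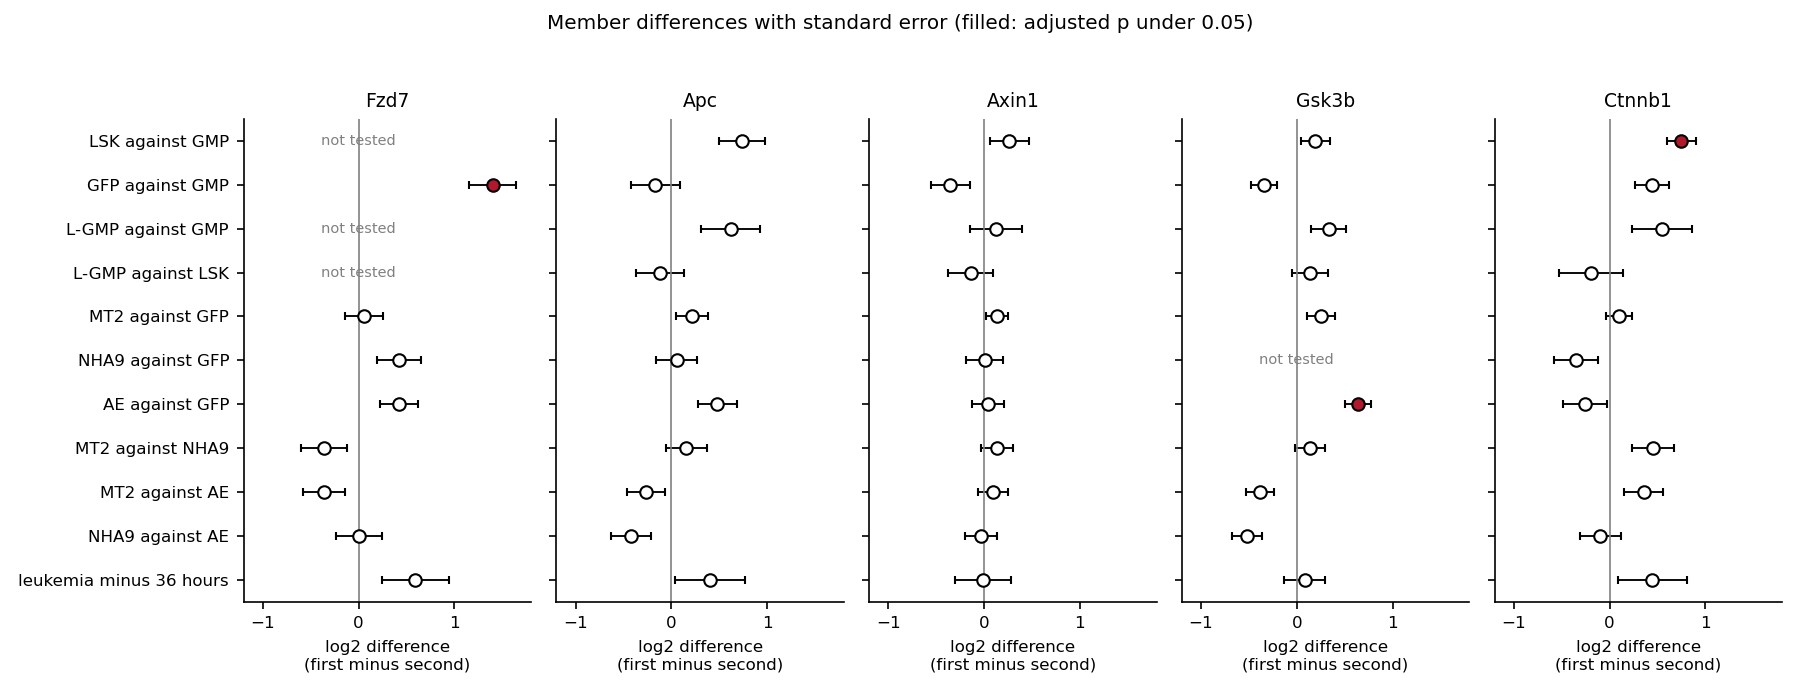
Log2 differences (horizontal axis, first group minus second) with standard errors for the members that were tested, 1 panel per gene and 1 line per comparison; filled points have a limma adjusted p under 0.05. The filled points are Fzd7 in GFP against GMP (1.40), Gsk3b in AE against GFP (0.63) and Ctnnb1 in LSK against GMP (0.75).

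Lef1 and Tcf7l2 encode DNA-binding partners of beta-catenin, and Lef1 is best known from lymphoid cells. Lef1 read 2.95 to 3.80 over all arrays, with group means of 3.13 to 3.48, so no difference was tested. The main Tcf7l2 probe set had group means of 4.74 to 5.16. A further Tcf7l2 set read 4.19, 4.19 and 4.42 in LSK and 2.33, 2.62, 3.19 and 3.22 in GMP, without overlap. Since both groups lay under 60, no fold is given and no test was made. The most similar patterns were Cacng2 (r = 0.84), Ccne1 (0.75) and Cbln1 (0.74) for Lef1, and Commd5 (r = 0.91), Ceacam2 (0.89) and Dennd1b (0.88) for Tcf7l2, over 24 arrays. Both genes are near background there, where differences in array background are shared between probe sets.

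Beyond the members, 122 other pathway genes on the array were grouped into ligands, receptors, secreted inhibitors, cytoplasmic relay, nuclear cofactors, junction proteins and TCF target genes. Few ligands and receptors were detected: of 21 ligand genes 2 were tested in each two-group comparison, and of 19 receptor genes 1 or 2. No ligand was called against GFP, GMP or LSK. Fzd6, a Frizzled of the same family as Fzd7, read 7.38, 7.36 and 6.91 in LSK and 5.17, 5.00, 6.03 and 5.94 in GMP. All LSK arrays lay above GMP, and Fzd6 was 1.68 higher in LSK (SE 0.28; limma adjusted p = 0.00437), at least 2.48-fold. The L-GMP arrays read 5.02, 4.65 and 4.51, so Fzd6 was lower there than in LSK, at least 2.48-fold (limma adjusted p = 0.000508). Sfrp1, a secreted inhibitor that binds Wnt ligands, fell by 0.72 in MT2 against GFP (SE 0.15, limma adjusted p = 0.0172). Its mean was 5.94 in MT2, close to background, 5.88 in NHA9 and 6.07 in AE. Direct limma tests did not separate MT2 from NHA9 (0.06, adjusted p = 0.936) or from AE (-0.13, adjusted p = 0.762). The F test over the 7 groups did not call Sfrp1 (limma adjusted p = 0.199), and only 1 of its 4 probe sets was tested in MT2 against GFP.

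Of the cytoplasmic list, MT2 against GFP called 4 of 17 tested, beside 11.8% of all probe sets tested, and the 4 were higher, as were 75.2% of all called probe sets (57.9% with quantile normalization). They were led by Frat2 and Frat1, whose proteins bind GSK3 and keep it from Axin. Frat2 read 7.25, 6.72 and 6.85 in GFP and 8.31, 7.93, 8.25 and 8.96 in MT2. The groups did not overlap, and Frat2 rose by 1.42 (SE 0.22; limma adjusted p = 0.00858), or 2.68-fold. Frat1 read 5.85, 5.65 and 5.86 in GFP and 6.47, 6.35, 6.24 and 6.75 in MT2, a rise of 0.66 (SE 0.14; limma adjusted p = 0.0181), at least 1.46-fold. The Frat2 call held in 14 of 15 alternative settings and the Frat1 call in 13 of 15, the exceptions being the methods' t-test for both and the fit without GFP 2 for Frat1.

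In leukemic GMP both Frat genes were higher still against fresh GMP. Frat2 read 9.59, 9.64 and 9.96 in L-GMP and 7.59, 7.59, 7.68 and 7.77 in GMP, a rise of 2.07 (SE 0.19; limma adjusted p = 0.000476), or 4.21-fold. Frat1 read 8.17, 8.42 and 8.06 in L-GMP and 5.96, 6.37, 6.04 and 6.31 in GMP, a rise of 2.05 (SE 0.20; limma adjusted p = 0.000721), or 4.13-fold. L-GMP 1, the array low for Ctnnb1, lay close to the other leukemic arrays for both. Between the controls, GFP minus GMP was -0.72 for Frat2 (limma adjusted p = 0.0176) and was not called for Frat1. The test of the difference between leukemia and 36 hours gave 1.38 for Frat1 (limma adjusted p = 0.00296) and 0.65 for Frat2 (adjusted p = 0.252), so a larger difference in leukemia was called for Frat1 only. The Frat2 means were 6.98 ± 0.30 in NHA9 (SD, n = 3) and 6.43 ± 0.23 in AE (SD, n = 4), and MT2 exceeded them by 1.39 and 1.93 in the direct tests, both called.

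Ppp2cb, a catalytic subunit of the phosphatase PP2A, read 9.51, 9.66 and 9.50 in GFP and 10.53, 10.03, 10.08 and 10.72 in MT2, a rise of 0.79 (SE 0.17; limma adjusted p = 0.0209), or 1.73-fold. In L-GMP it read 10.82, 10.17 and 9.67, which was 1.16 over GMP (SE 0.27; adjusted p = 0.046), or 2.23-fold. In AE the cytoplasmic genes called were Dvl1, a Dishevelled, and Csnk1d, a casein kinase of the CK1 family that was also called in MT2. Dvl1 read 7.60, 7.41 and 7.78 in GFP and 8.60, 9.01, 8.64 and 8.82 in AE, a rise of 1.17 (SE 0.16; limma adjusted p = 0.00281), or 2.25-fold. Only 1 of the 2 Dvl1 probe sets and 2 of the 5 Csnk1d probe sets were called. Dvl1 also differed between MT2 and AE, by -0.74. The calls on Ppp2cb held in 9 of 16 alternative settings in MT2 and 6 of 16 in L-GMP, and that on Dvl1 in 15 of 16. These counts include the mean of a gene's probe sets, which was formed for the members only. For Ppp2cb and Dvl1 that setting left the values unchanged and adds no check.

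Of the nuclear cofactors, AE cells held more message for Tle1, a Groucho corepressor, for Hbp1, an HMG-box repressor, and for Bcl9, which bridges beta-catenin to Pygopus. Tle1 read 7.15, 7.33 and 6.85 in GFP and 7.65, 8.17, 8.33 and 7.84 in AE, a rise of 0.89 (limma adjusted p = 0.0218), or 1.85-fold. Hbp1 rose by 0.81 (limma adjusted p = 0.0209) and Bcl9 by 0.71 (adjusted p = 0.037), both without overlap. Of the 3 Hbp1 probe sets, 2 were tested and 1 was called. The acetyltransferase gene Crebbp rose by 0.64 (adjusted p = 0.0433), while the corepressor Tle3 fell by 0.53 (adjusted p = 0.0408). The calls on Tle1 and Hbp1 held in 8 of 16 alternative settings each and that on Bcl9 in 4 of 15, and each was lost without GFP 1, GFP 2, AE 2 or AE 3. For Tle1 and Hbp1 the count includes the mean of probe sets, which left their values unchanged. On the arrays of tag A only, with 1 AE array, the calls on Csnk1d, Hbp1, Tle1 and Bcl9 were lost (limma adjusted p = 0.0847, 0.0566, 0.128 and 0.106) and that on Dvl1 was kept (1.00; adjusted p = 0.0189). Quantile normalization moved the median difference of all tested probe sets between AE and GFP from 0.08 to -0.02, and Gsk3b was then 0.58 higher in AE (limma adjusted p = 0.0323). Bcl9, Crebbp and Hbp1 were also higher in LSK than in GMP, by 1.03, 0.82 and 0.92, and were lower in L-GMP than in LSK.

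Among 22 TCF target genes, 5 to 7 were tested in a comparison. Ccnd1, which encodes cyclin D1, read 7.62, 8.91 and 8.97 in L-GMP and 5.97, 6.09, 6.21 and 6.08 in GMP. All L-GMP arrays lay above GMP, and Ccnd1 rose by 2.41 (SE 0.32; limma adjusted p = 0.00391), or 5.33-fold, in 2 of its 3 probe sets. On the arrays of tag A only, where L-GMP 1 is the sole leukemic array, the difference was 1.53 and was not called (adjusted p = 0.0763), nor was it by the methods' t-test. At 36 hours Ccnd1 stayed under 60 in MT2, at 5.58 ± 0.26 (SD, n = 4), and in GFP, at 5.42 ± 0.21 (SD, n = 3), and the test of the difference between leukemia and 36 hours gave 2.26 (adjusted p = 0.00307). Myc, the growth regulator, rose in MT2 by 1.05 over GFP (SE 0.16; limma adjusted p = 0.00845), or 2.06-fold. In L-GMP it read 9.11, 9.52 and 8.86, beside a GMP mean of 9.68 ± 0.35 (SD, n = 4), and the difference between leukemia and 36 hours was -1.56 (limma adjusted p = 0.0084). Between the controls, GFP minus GMP was -1.03 for Myc (limma adjusted p = 0.0144) and -0.67 for Ccnd1 (adjusted p = 0.0182). The Myc mean in MT2 was 9.69 ± 0.19 (SD, n = 4), near that of fresh GMP. The Ccnd1 and Myc differences between leukemia and 36 hours were called in all 20 and all 19 alternative settings. For Ccnd1 the count includes the mean of probe sets, which left its values unchanged and adds no check. Of its 3 probe sets, 2 were called in that test.

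Id2, a dominant-negative helix-loop-helix factor, fell in MT2 by 1.57 against GFP (SE 0.35; limma adjusted p = 0.0217). In GFP it exceeded GMP by 3.06 (SE 0.22; limma adjusted p = 4.09e-05), at least 3.83-fold. Jun rose in AE by 1.92 (SE 0.27; limma adjusted p = 0.0032), or 3.78-fold, and was 2.21 higher in LSK than in GMP (SE 0.53; adjusted p = 0.0231). The calls held in 10 of 16 alternative settings for Id2 in MT2, lost among others without each of the GFP arrays, and in 15 of 16 for Jun in AE and 9 of 16 for Jun in LSK. Here too the mean of probe sets is counted, although it left the values of Id2 and Jun unchanged. Each of these target genes also answers to signals other than Wnt, and the target list shares genes with the other lists through Axin2 and 6 further genes.

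**Figure D4:**
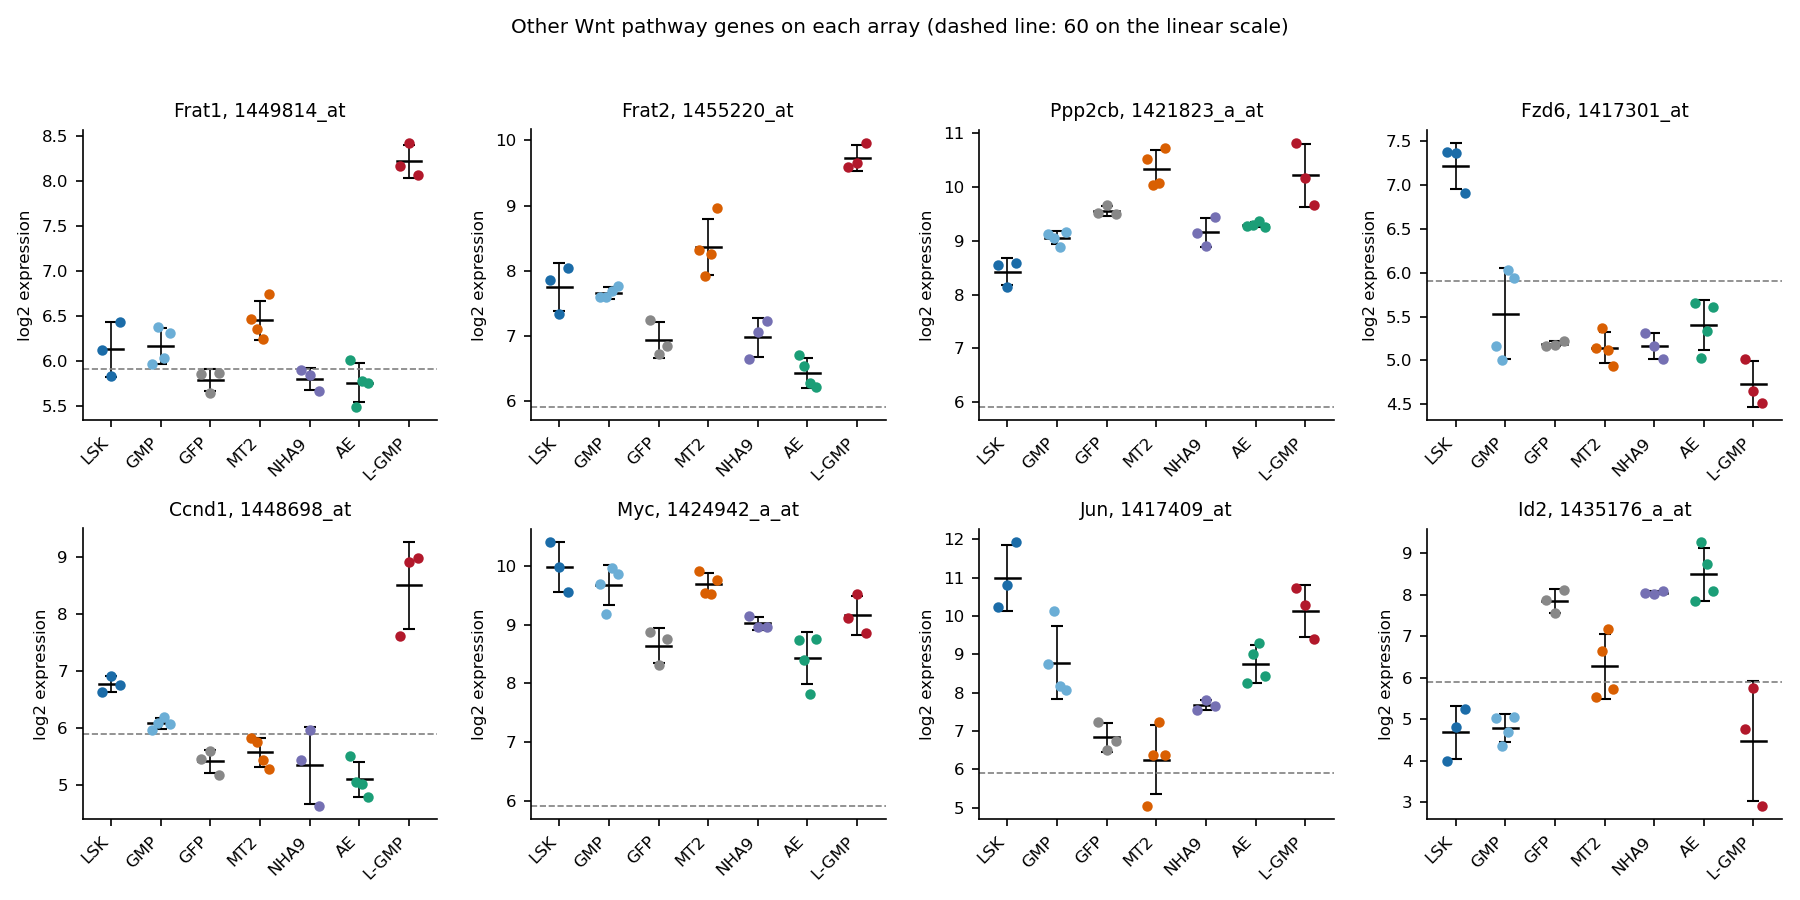
Log2 expression (vertical axis) of 8 other Wnt pathway genes on each array, groups along the horizontal axis, points for arrays, bars for means, dashed line at 60 (5.91). Frat1 and Frat2 are highest in L-GMP (8.22 and 9.73 in the mean), Fzd6 exceeds the line on all arrays of LSK, and Ccnd1 is highest in L-GMP (8.50).

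Counted over the 122 genes, MT2 against GFP called 5 higher and 2 lower of 46 tested (15.2%), beside 11.8% over all tested probe sets, with a median difference of 0.05 beside 0.07 over all. AE against GFP called 7 higher and 1 lower of 47, or 17%, beside 11% over all, with a median of 0.14 beside 0.08. NHA9 against GFP called 0 of 45 by limma, with 6 at an unadjusted p under 0.05, and the joined oncogenes 0 of 50, with 4, and the methods' t-test called 0 in NHA9.

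LSK against GMP called 10 higher and 1 lower of 48 (22.9%), beside 15.1% over all, with a median of 0.23 beside 0.06. L-GMP against GMP called 4 higher and 0 lower of 48, or 8.33%, beside 4.86% over all, with a median of 0.06 beside 0.03. GFP against GMP called 3 higher and 5 lower of 49, or 16.3%, beside 15.7% over all, and L-GMP against LSK 4 higher and 5 lower of 46, or 19.6%, beside 17.3%. MT2 against AE called 6 higher and 12 lower of 48, or 37.5%, beside 28.5% over all. The pathway shares count each gene by its brightest probe set, while the shares over all count every tested probe set, so the units are unlike. Comparisons with the same control group share its arrays. Over all tested probe sets the share of called ones that were higher depended on scaling: with quantile normalization it went from 75.2 to 57.9% in MT2 against GFP, from 79.8 to 59.7% in AE against GFP, from 66.9 to 50.2% in LSK against GMP and from 70.1 to 59.8% in L-GMP against GMP.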

How the data were processed

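Messenger RNA was measured on 24 one-colour Affymetrix arrays in 7 groups taken from the sample titles. The deposited values are log2 expression estimates that the authors made with GCRMA 2.4.1 from MAS5 cell files, as the submitters' processing notes and the labels name them; per the series' design text, outlier arrays were removed first. GCRMA subtracts a background predicted from each probe's bases and equalizes the arrays, so levels near background are compressed and carry little information. No further normalization was applied. The number of arrays limits the precision.

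Of 22690 probe sets, 64 were controls, 20380 had 1 gene symbol, 691 several and 1555 none; probe sets without a single symbol were not named. Differences were tested with limma 3.58.1 (lmFit and eBayes, R 4.3.3) on probe sets over 60 on at least 2 arrays of a compared group; p-values were adjusted by Benjamini-Hochberg and called under 0.05, and the fit was tested on simulated data. Present calls were not used. Oncogene pairs were compared in 1 fit to the 4 transduced groups. Of the 13 comparisons, GFP against GMP and L-GMP against LSK are not in the design text.

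Alternatives were quantile normalization, other filters, leaving out each array, the methods' t-test (Welch) that the design text names, 1 fit to all arrays, the file-name tag (A, B or none) as a factor or tag A alone, the replicate number as a block, and the mean of a gene's probe sets. That mean was formed for the members only. For other genes with several probe sets the setting is counted but left their values unchanged. The members and gene lists were chosen with earlier results of these data known. Text names all members and, for the beta-catenin and TCF genes, the 3 most similar patterns. Of each pathway list and comparison, up to 3 called genes with the smallest adjusted p were picked, and not all are described. Left out are Siah1a, Csnk1d, Ppp2cb, Ctnna1 and Ccnd1 in LSK against GMP and Csnk1d, Ppp2cb and Tle3 in GFP against GMP. Frat1, Frat2, Ppp2cb and Ccnd1 in L-GMP against LSK are left out too. Csnk1d in MT2, Crebbp and Tle3 in AE were named after their values were seen. Replicate numbers did not pair the samples: the correlations of deviations between same-numbered arrays ran from -0.286 to 0.257. Promoter sequences are from RefSeq on GRCm38.p6.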

Additional observations from a re-analysis of the deposited data

Results flagged for a closer look

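In the AML1-ETO group, array AE 2 lay apart from the other 3 for Gsk3b, at 6.2, below the rest but still above every GFP array. In the MOZ-TIF2 group, MT2 4 lay apart for Ctnna1, the gene of alpha-catenin, at 9.853, above the others. These were 2 of 72 groups of 4 arrays examined, and chance marks about 1 group in 20.

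The effects of the oncogenes differed from each other in direct limma tests for several pathway genes, taken between the oncogene groups themselves. Only genes already picked for a call in a two-group comparison were examined, in part on the same arrays, so not every called gene is named. MT2 against NHA9 called 5 of 46 tested pathway genes (10.9%), beside 7.52% of all tested probe sets. MT2 against AE called 18 of 48 (37.5%) beside 28.5%, and NHA9 against AE 5 of 47 (10.6%) beside 7.23%. MT2 exceeded NHA9 for Frat1 by 0.651, Frat2 by 1.39 and Ppp2cb by 1.19, and lay below it for Jun (-1.42) and Id2 (-1.78). MT2 exceeded AE for Frat1 by 0.695, Frat2 by 1.93, Ppp2cb by 1.04, Tle3 by 0.801 and Myc by 1.26. MT2 lay below AE for Dvl1 (-0.742), Bcl9 (-0.568), Tle1 (-0.817), Crebbp (-0.615), Hbp1 (-1.05), Jun (-2.5) and Id2 (-2.22). NHA9 lay below AE for Bcl9 (-0.76), Tle1 (-1) and Crebbp (-0.599) and above it for Tle3, by 0.58.

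L-GMP minus GMP departed from MT2 minus GFP for Frat1 (1.38), Ccnd1 (2.26) and Myc (-1.56), and the controls of these differences are unlike. Of 49 tested pathway genes 3 were called there (6.12%), beside 5.68% of all tested probe sets. No member was among these differences between oncogenes or between leukemia and 36 hours. The causes were not tested.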

How the results depend on the processing

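Of the 6 called member results, 0 changed sign and 2 kept their call in every alternative; of 55 member differences that were not called, 23 changed sign in some alternative, the largest with a size of 0.55. Of 46 called differences of other pathway genes, 0 changed sign and 6 kept every call. The mean of probe sets was formed for the members only and adds no check to these. The cause of the changes below was not tested, and levels near background (Fzd7, Gsk3b, Lef1, Tcf7l2) limit what can be seen.

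Members called in AE against GFP went from 1 to 0 with the replicate block and by the methods' t-test, and ranged from 0 to 2 leaving out 1 array (0 without GFP 1 or GFP 2, 2 without AE 1). In LSK against GMP the count of 1 became 2 with quantile normalization, the replicate block, the file-name tag as a factor or 1 fit to all arrays, 0 by the methods' t-test and with the mean of probe sets, and 0 to 2 leaving out 1 array (0 without LSK 1 or LSK 2, 2 without GMP 2 or GMP 4). In GFP against GMP it was 2 with quantile normalization or the tag as a factor, 0 with the mean of probe sets and 1 to 2 leaving out 1 array (2 without GMP 2); the methods' t-test called Gsk3b (adjusted p = 0.0487) and not Fzd7 (0.0602). L-GMP against GMP gave 0 to 1 and leukemia minus 36 hours 0 to 1 leaving out 1 array, 1 without L-GMP 1 in both. L-GMP against LSK gave 3 on tag A only, where 1 L-GMP array meets 2 LSK arrays and is assumed to vary as they do, so these calls rest on L-GMP 1 alone. MT2 against AE gave 1 with the replicate block, 2 with the tag as a factor and 0 to 1 leaving out 1 array, and NHA9 against AE 1 with the replicate block and 0 to 1 leaving out 1 array (1 in both without MT2 3 or NHA9 3). The F test over 7 groups called 3 of 5 tested members, beside 56.3% of all tested probe sets. It called 5 with quantile normalization and 2 to 5 leaving out 1 array (5 without NHA9 3 or L-GMP 1).

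Other pathway genes called ranged, leaving out 1 array, from 2 to 8 in MT2 (fewest without GFP 2), 2 to 17 in AE (most without AE 1), 2 to 13 in LSK against GMP, 3 to 5 in L-GMP against GMP, 2 to 15 in GFP against GMP (most without GMP 2) and 4 to 14 in L-GMP against LSK (most without L-GMP 1). The methods' t-test called 0, 0, 0, 1, 2 and 1 of them, and the tag as a factor 3, 5, 18 and 10 in the first 4 and 19 in the last. Over all probe sets the methods' t-test called 0 in MT2, NHA9 and AE, 268 in LSK against GMP, 15 in L-GMP against GMP, 606 in GFP against GMP, 162 in L-GMP against LSK and 118 for the joined oncogenes. The tag as a factor called 303 in MT2 and 1969 in L-GMP against GMP.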
